A study of Mus musculus with 6 samples.

Results

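The genes described here encode the nuclear-coded subunits of oxidative phosphorylation. They were taken by symbol from the array's annotation: complex I (symbols that begin Ndufa, Ndufb, Ndufc, Ndufs or Ndufv), complex II (Sdha to Sdhd), complex III (Uqcr), complex IV (Cox4 to Cox8) and ATP synthase (Atp5). The rule found 179 probe sets for 90 genes, of 45037 probe sets and 18193 genes named on the array. It also took in 8 complex I assembly factors whose symbols begin Ndufaf. A further 10 probe sets that carry a member's symbol beside other symbols were left out. No measured value entered the symbol rule, but the members were chosen with earlier results of these data known.

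Oxidative phosphorylation takes place in the inner mitochondrial membrane. Complex I receives electrons from NADH and complex II from succinate, both pass them through ubiquinone to complex III, and cytochrome c carries them on to complex IV, which reduces oxygen to water. Complexes I, III and IV pump protons as they work, and ATP synthase uses the returning protons to make ATP. Smooth muscle draws on this system for sustained contraction. Several complex IV subunits exist as a widely used isoform and a tissue-restricted isoform: Cox6a2, Cox7a1 and Cox8b are the isoforms of heart and skeletal muscle, Cox7a1 and Cox8b are also found in brown fat, Cox4i2 is known from lung and from cells short of oxygen, and Cox6b2, Cox7b2 and Cox8c are known from testis.

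Bladders were taken from male FVB/N mice on postnatal day 2, from time-mated parents. Per the labels the tissue of origin is detrusor, the bladder's muscle coat. The mice carried a pair of transgenes, SMGA/EGFP (green reporter under the smooth muscle gamma actin promoter, endogenous gene Actg2) and SMAA/EYFP (yellow reporter under the smooth muscle alpha actin promoter, endogenous gene Acta2). Tissue was digested with Blendzymes 1 & 4 and cells were sorted by fluorescence into single-positive cells (EGFP positive, EYFP negative, 3 arrays) and double-positive cells (EGFP positive, EYFP positive, 3 arrays). Samples were not pooled, RNA was amplified in 2 rounds, and whether different animals supplied the 3 arrays of a group is not said, so each p-value reflects the spread among these samples, which may be technical. Differences are given as double-positive minus single-positive.

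The groups also differed in markers of several cell types. Acta2, whose promoter drives the reporter that separates the groups, was at 51633 to 67708 in the single-positive and 49474 to 71648 in the double-positive arrays. Actg2, whose promoter drives the reporter that both groups carry, was at 51399 to 68165 against 7404 to 13959 (log2 difference -2.54, limma adjusted p = 0.0002). The marker counts that follow are of genes that passed limma's test. Of all genes tested, 4.38% were called lower and 1.98% higher in double-positive cells. Of 12 smooth muscle contractile genes 9 were lower in double-positive cells, with sums of 347615 to 440813 against 160382 to 195717. All 15 leukocyte markers were lower, and their summed signal was 96427 to 137939 in the single-positive and 12970 to 21094 in the double-positive arrays. For endothelium 6 of 10 markers were lower (sums of 38198 to 47358 against 6725 to 11235), for urothelium 8 of 12 (22258 to 39976 against 4688 to 8139), for nerve 4 of 7 tested (11060 to 14915 against 1401 to 2363) and for pericytes 3 of 9 tested (58849 to 63320 against 26721 to 47799). Of 11 cell cycle genes 3 were higher, against 1.98% of all genes (sums of 79131 to 83105 against 121032 to 135684). In each of these sums the groups did not overlap. The part of such cells in the results on the subunits was not tested. In a bulk sample, fewer cells of a type and less RNA per cell cannot be told apart.

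The control regions of some widely used and tissue-restricted isoforms are shown first, because these isoforms are known from different tissues and their signals are compared further on. Among those shown, only Cox8a and Cox8b are forms of the same subunit. The sequences are RefSeq's for mouse (GRCm38.p6), from 250 bases before to 50 bases after the annotated start, on the gene's strand. Cox8a lies at chr19:7217567-7217866 on the minus strand and Cox8b, its muscle isoform, at chr7:140900397-140900696 on the minus strand. Cox6a1, the widely used form of subunit 6a, lies at chr5:115348909-115349208 on the minus strand and Cox7a1, the muscle form of subunit 7a, at chr7:30183921-30184220 on the plus strand. Capitals mark matches on either strand to the motifs named after the sequences.
Cox8a: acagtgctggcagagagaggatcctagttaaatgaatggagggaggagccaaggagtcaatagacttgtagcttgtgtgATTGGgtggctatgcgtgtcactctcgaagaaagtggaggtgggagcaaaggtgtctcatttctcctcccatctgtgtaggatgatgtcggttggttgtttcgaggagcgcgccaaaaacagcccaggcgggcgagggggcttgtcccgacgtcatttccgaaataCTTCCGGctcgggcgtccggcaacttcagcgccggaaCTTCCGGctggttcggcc
Cox8b: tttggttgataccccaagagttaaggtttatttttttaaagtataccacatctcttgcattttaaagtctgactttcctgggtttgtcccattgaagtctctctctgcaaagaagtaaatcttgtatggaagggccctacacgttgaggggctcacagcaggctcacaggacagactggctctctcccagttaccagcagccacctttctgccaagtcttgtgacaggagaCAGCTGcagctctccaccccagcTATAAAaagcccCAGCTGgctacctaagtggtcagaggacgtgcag
Cox6a1: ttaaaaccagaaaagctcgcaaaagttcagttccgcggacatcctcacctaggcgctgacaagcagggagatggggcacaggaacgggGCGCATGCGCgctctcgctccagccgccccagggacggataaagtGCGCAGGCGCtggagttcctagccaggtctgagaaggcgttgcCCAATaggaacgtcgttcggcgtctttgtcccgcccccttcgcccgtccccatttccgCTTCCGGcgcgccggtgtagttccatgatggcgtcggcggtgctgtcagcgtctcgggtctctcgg
Cox7a1: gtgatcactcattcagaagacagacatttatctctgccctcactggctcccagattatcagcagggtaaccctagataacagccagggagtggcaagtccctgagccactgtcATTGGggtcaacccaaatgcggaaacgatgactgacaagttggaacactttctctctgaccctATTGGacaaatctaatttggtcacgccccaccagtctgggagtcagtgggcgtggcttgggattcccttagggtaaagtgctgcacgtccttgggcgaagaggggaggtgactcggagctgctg

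A match is a description of the letters and not a binding site. In all 8 motifs were searched on both strands, and TATAAA can lie within the MEF2 core. The Cox6a1 window held the core of the NRF1 site, the core of ETS factor sites (CCGGAAG) and a CCAAT box, and the Cox8a window held the ETS core and a CCAAT box. The Cox8b window held the E-box CAGCTG, a site type of muscle regulators, and a TATAAA box, and the Cox7a1 window held CCAAT boxes alone. The window of Cox7a2, the widely used partner of Cox7a1, is not shown and matched none of the 8 motifs. Promoters were listed for 74 of the 90 members. The NRF1 core was in 23.0% of these against 5.19% of all 27025 genes in the table, the ETS core in 25.7% against 9.93%, and the YY1 core (AANATGGCG) in 13.5% against 2.76%. The element TCAAGGTCA of oestrogen-related receptors was in 2.70% against 0.466%. The E-box CAGCTG was in 8.11% against 18.3%, TATAAA in 10.8% against 15.7%, the MEF2 core in 2.70% against 4.23%, and the CCAAT box in 43.2% against 41.1%. The members' windows were richer in G and C, with a median of 58.8% against 52.8%. Of the 8 tissue-restricted isoforms, 4 had a listed promoter (Cox6b2, Cox7a1, Cox7b2 and Cox8b), and in these 4 windows the letters of the NRF1, ETS and YY1 cores were not found. Most windows of the 70 other members lacked each of them too: the cores were in 24.3%, 27.1% and 14.3%. The difference was not tested.

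No member passed the main test between the populations, and most differences were small. With the replicate number fitted as a block, 2 members passed: Ndufa4l2 was higher and Cox7a2 lower. In that fit 324 of 13464 genes in all were called higher and 690 lower. Of 90 member genes 86 passed the filter on dim genes (a mean log2 level over the 6 arrays above 6.82, a signal of about 87.6), and 0 of the 86 passed limma's test after Benjamini-Hochberg adjustment over all 13464 genes, whereas 6.37% of all genes tested did (1.98% higher and 4.38% lower in double-positive cells). At an unadjusted p under 0.05 there were 11 members (12.8%; 2 higher, 9 lower), against 17.6% of all genes. The members' median log2 difference was -0.08, with a middle range from -0.29 to 0.07, and the median of all genes was 0.02. For 74 of 86 members (86.0%) the difference was under 0.5 on the log2 scale, against 67.7% of all genes and 76.1% of 5064 other genes in the members' middle range of mean level. The 95% interval of the difference lay within 2-fold in both directions for 66 members and within 1.5-fold for 24. The median SE was 0.22 for members, 0.34 for all genes and 0.26 for those 5064.

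The small differences leaned towards lower signals in double-positive cells. They were below 0 for 52 of 86 members (60.5%), against 48.2% of all genes. The double-positive arrays all lay below the single-positive arrays for 17 members (19.8%), against 11.9% of all genes, and all above for 2 (2.33%), against 10.5%. Among the 5064 genes of like mean level, the median was 0.02, with 11.2% below and 12.5% above. This lean rested in part on the third double-positive array. That array was the lowest of the 6 for 41 of 86 members, where each other array was lowest for 4 to 16. Its median deviation from the members' means was -0.24, against 0.02 to 0.13 on the other arrays. Its ratio of 3' to 5' control signal for Actb, a measure of RNA quality, was also the highest at 8.02, against 2.78 to 5.97. The same ratio for the Gapdh control was highest there too, at 23.9 against 11.8 to 20.6. The part of RNA quality in the result was not tested. Without that array the members' median was 0.004 and that of all genes 0.04, and 42 of 86 members were below 0. Of the 86, 23 lay below without overlap and 11 above (18.5% and 21.2% of all genes). In this setting 2 members passed limma's test: Ndufa4l2 was higher (2.64, adjusted p = 0.028) and Ndufa4 lower (-0.77, adjusted p = 0.039). Of 13483 genes in all, 348 were then called higher and 736 lower.

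**Figure D1:**
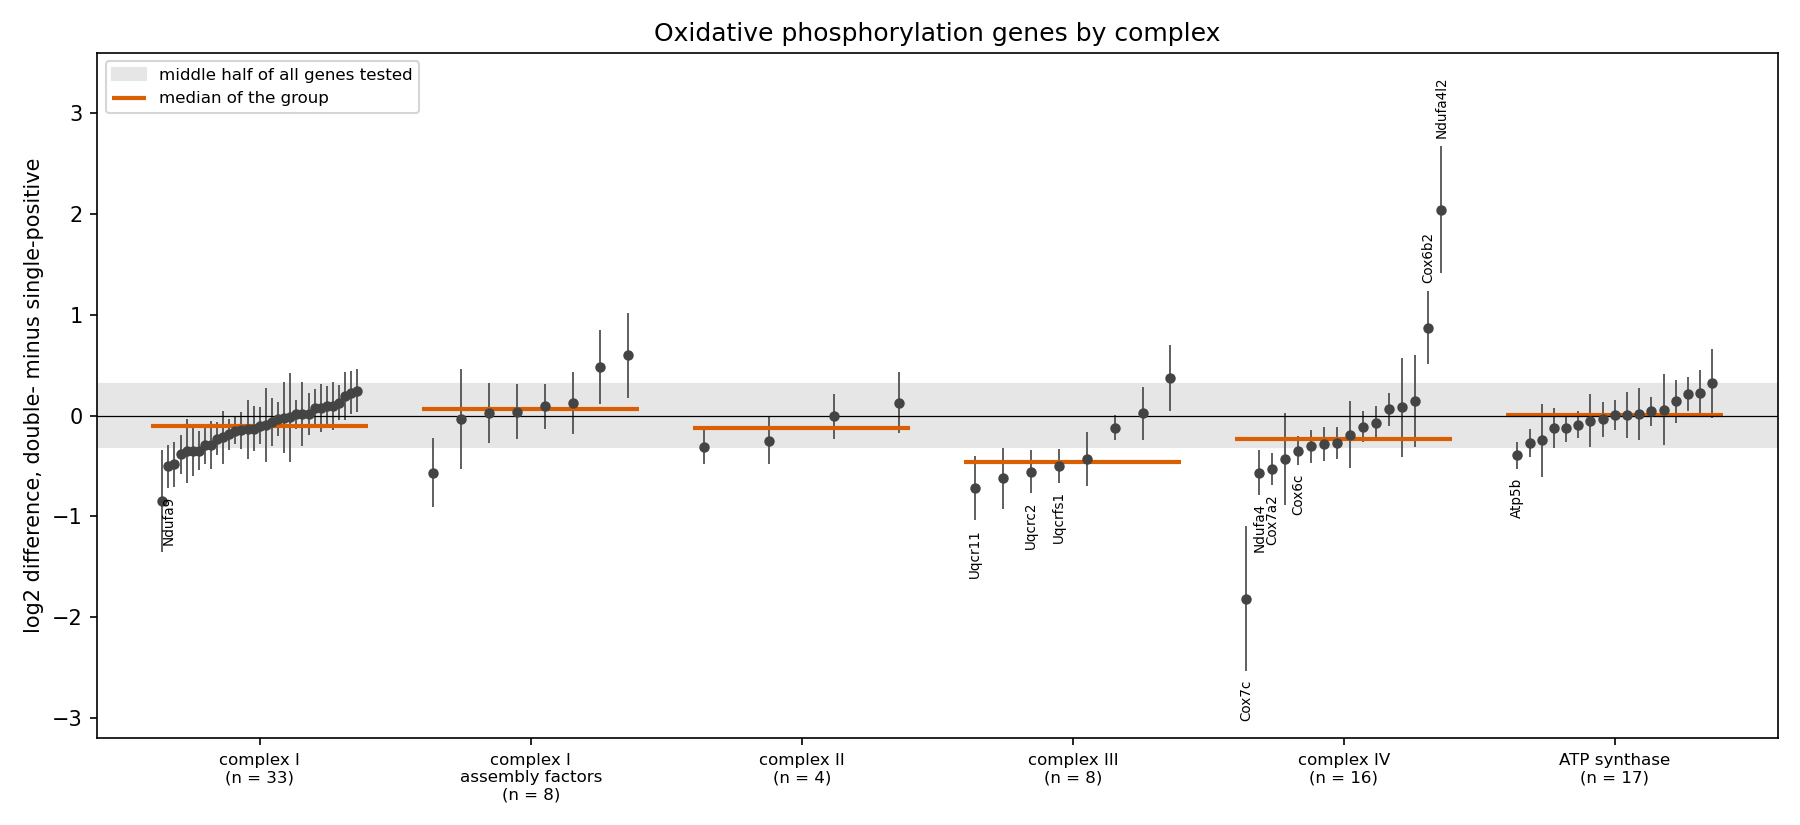
Log2 difference (double-positive minus single-positive) of each of the 86 members tested, grouped by complex and sorted within it; points are estimates, bars 1 SE of the limma fit, orange lines the group medians and the grey band the middle range of all 13464 genes. Members with an unadjusted p under 0.05 are named; complex III has the lowest median (-0.46) and ATP synthase a median of 0.01.

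**Figure D2:**
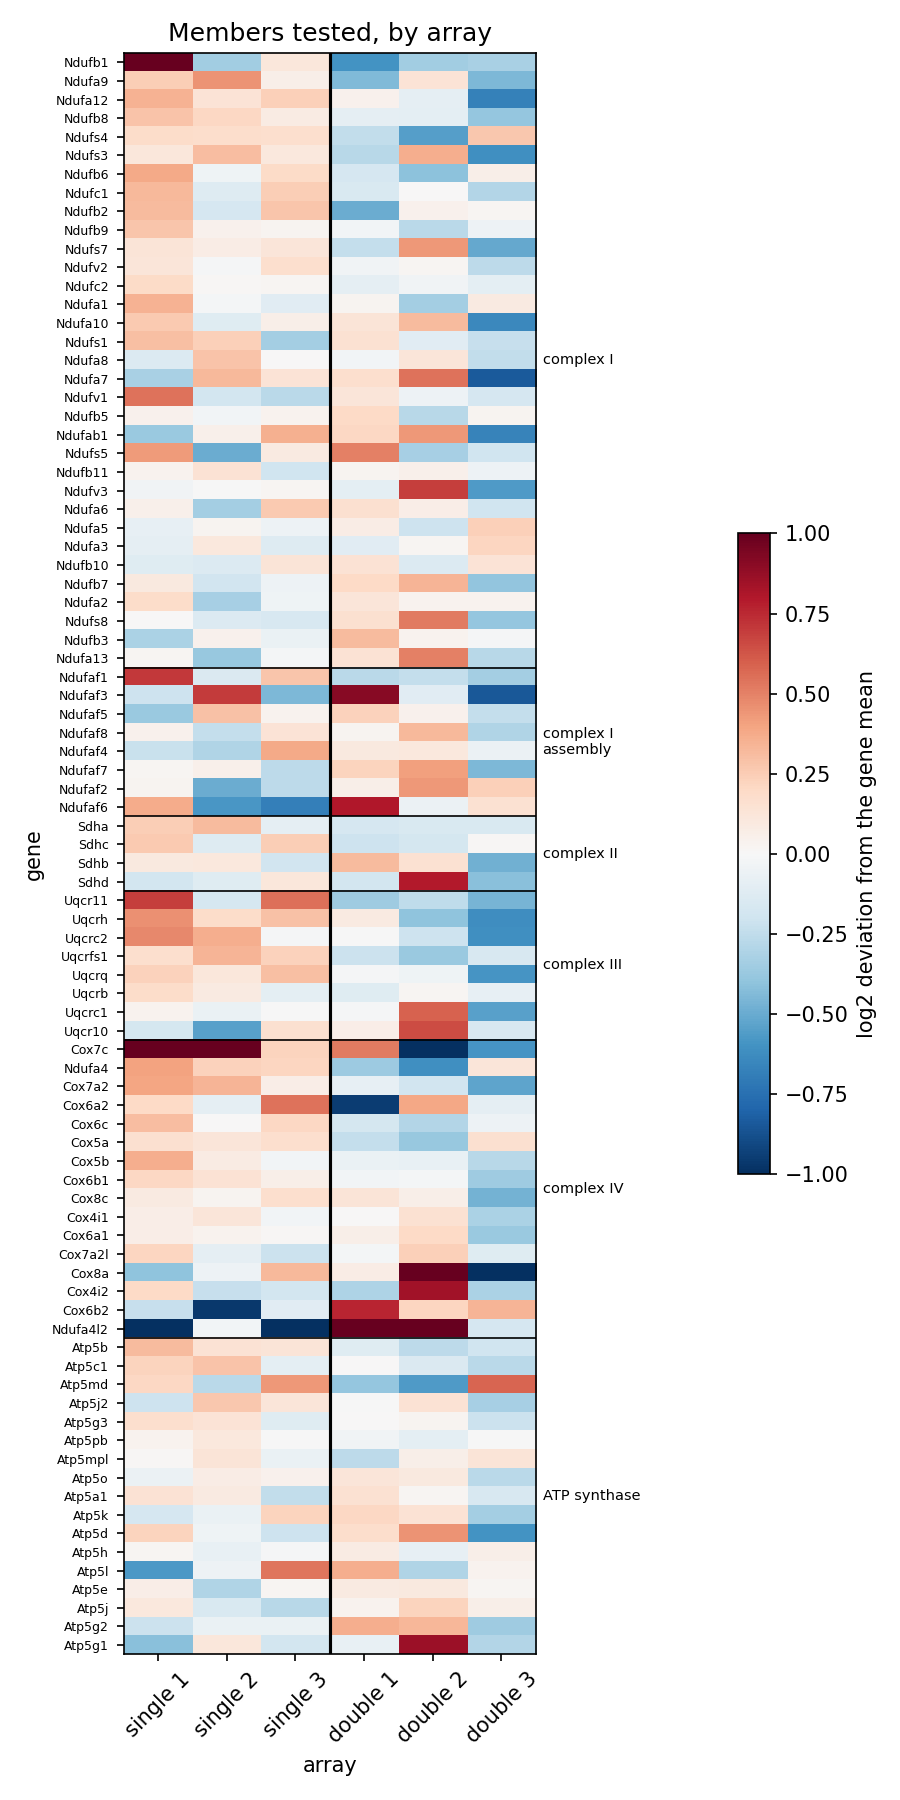
Deviation of each tested member from its mean over the 6 arrays, on the log2 scale (blue below, red above, colours end at 1 in either direction), with genes grouped by complex and the black line between the 3 single-positive and the 3 double-positive arrays. The third double-positive array is the lowest of the 6 for 41 of the 86 members.

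Complex I, the entry point for electrons from NADH, was represented by 33 tested subunits, of which 0 were called (6.37% of all genes were). Their median difference was -0.10, 22 were below 0, and 31 of the 33 differences were under 0.5. Without the third double-positive array the median was -0.01, with 19 below 0. The double-positive arrays lay below the single-positive arrays for 4 subunits, Ndufa12, Ndufb8, Ndufb9 and Ndufc2 (12.1%, against 11.9% of all genes), and above for 0 (10.5% of all genes). Ndufa9, an accessory subunit near the ubiquinone site, had signals of 14586, 16775 and 12751 in the single-positive and 9034, 13492 and 8978 in the double-positive arrays. The groups overlapped through the second double-positive array, and the difference was -0.50 (SE 0.21, adjusted p = 0.25). Ndufa12 read 11714, 10104 and 10824 against 9458, 8636 and 5747 (-0.48, SE 0.22, adjusted p = 0.305), with the third double-positive array far below the rest. Of its other tested probe sets, 1 gave -0.38 (SE 0.21) without overlap and 1 gave -0.04 (SE 0.25) with overlap. Ndufb8, a subunit of the membrane arm, read 8875, 8424 and 7731 against 6852, 6811 and 5566 (-0.38, SE 0.20, adjusted p = 0.37).

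Of the core subunits, Ndufv2 differed by -0.19 (SE 0.15) and Ndufs3 by -0.35 (SE 0.25), and neither passed the test. Ndufv1, which binds the flavin that accepts electrons from NADH, read 14598, 8817 and 8272 against 10899, 9651 and 8902, a difference of -0.06 (SE 0.24). Ndufs1, the large iron-sulfur subunit, differed by -0.13 (SE 0.22). Ndufs7 and Ndufs8, which hold the last iron-sulfur clusters before ubiquinone, differed by -0.21 (SE 0.26) and 0.19 (SE 0.24). Ndufc2 read 34505, 30443 and 30524 against 28293, 29441 and 28262. Its groups did not overlap, yet the difference was -0.15 (SE 0.13, adjusted p = 0.66), with a 95% interval from -0.44 to 0.14. The other tested probe sets of Ndufc2 gave 0.01 (SE 0.19) and -0.24 (SE 0.32), both with overlap. Ndufs5, on a dim probe set, read 220, 104 and 169 against 234, 120 and 134, and its difference was -0.02 (SE 0.44). The lowest difference, -0.84 for Ndufb1 (SE 0.51), came from the first single-positive array, at 589, where the others read 119 to 209. Ndufb4 did not pass the filter and read 24.2 to 54.8 on all arrays.

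The 8 complex I assembly factors, which help build the complex and are not part of it, had a median difference of 0.07 and 0 calls. Ndufaf1 read 1283, 699 and 945 against 638, 652 and 607, without overlap (-0.56, SE 0.34, adjusted p = 0.47). Ndufaf2 was the reverse case, at 310, 207 and 248 against 317, 418 and 361, also without overlap (0.49, SE 0.37, adjusted p = 0.585). Ndufaf6 had the widest difference of the group, 0.60 (SE 0.42, adjusted p = 0.55), with overlapping groups at 675, 337 and 313 against 922, 497 and 578. Ndufaf4 read 7138 to 11444 against 8432 to 9417 (0.09, SE 0.22). None of the 8 passed the test.

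Complex II, which also works in the citric acid cycle, had 4 members and 0 calls, with a median of -0.13. Sdha, the flavin-bearing subunit that oxidises succinate, read 19752, 20766 and 15622 against 14845, 14991 and 15034. Its double-positive arrays lay close together and just below the lowest single-positive array, with a difference of -0.31 (SE 0.17, adjusted p = 0.39). A second probe set for Sdha gave -0.11 (SE 0.17), with overlap. Sdhb, the iron-sulfur subunit, differed by -0.005 (SE 0.22). Of the membrane anchors, Sdhc differed by -0.25 (SE 0.24) and Sdhd by 0.13 (SE 0.30), the latter with 12342 on the second double-positive array and 5329 to 7681 on the rest.

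Complex III, which passes electrons from ubiquinol to cytochrome c, had the lowest median of the complexes at -0.46, with 6 of 8 subunits below 0 and 0 called. The double-positive arrays lay below the single-positive arrays for 4 of 8 (50%, against 11.9% of all genes) and above for 0. Uqcrfs1, the Rieske iron-sulfur protein that takes the first electron, read 13435, 15159 and 14034 against 10321, 9211 and 10717. Its groups were well apart, and the difference was -0.50 (SE 0.17, adjusted p = 0.14). Uqcrc2, a core protein, read 20799, 19093 and 14732 against 14808, 12838 and 9690, where the groups touched (-0.55, SE 0.21, adjusted p = 0.19). Its second probe set, at 18960, 12332 and 11729 against 11280, 7490 and 11185, did not overlap and gave -0.51 (SE 0.25).

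The small subunits of complex III did not all follow. Uqcr11 read 2283, 1243 and 2063 against 1087, 1167 and 1010 (-0.72, SE 0.32, adjusted p = 0.28). Uqcrh, the hinge protein that helps complex III hold cytochrome c1, read 1936, 1600 and 1729 against 1498, 1059 and 904 (-0.62, SE 0.30), but its other probe set gave 0.08 (SE 0.38), so the 2 did not point the same way. Uqcrq read 2871, 2658 and 3015 against 2425, 2381 and 1622 (-0.43, SE 0.27). Uqcrb, a small subunit on the matrix side, read 62832, 59055 and 51797 against 51060, 56179 and 52386, with a difference of -0.12 (SE 0.12) that leaves -0.39 to 0.15 in its 95% interval. Its second, dimmer probe set gave -0.63 (SE 0.35), with overlap. Uqcrc1, the other core protein, differed by 0.02 (SE 0.26), and Uqcr10 by 0.38 (SE 0.325). Without the third double-positive array the median of complex III was -0.31, with 6 of 8 below 0. In that setting 4 of 8 lay below without overlap, against 18.5% of all genes.

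Complex IV, the oxidase that consumes oxygen, had differences from -1.82 to 2.05. With Ndufa4, now counted as a complex IV subunit, and its paralog Ndufa4l2 it had 19 members of which 16 were tested and 0 called. The median was -0.23, 11 of 16 were below 0, and the double-positive arrays lay below for 5 (31.2%, against 11.9% of all genes) and above for 1 (6.25%, against 10.5%). Without the third double-positive array the median was -0.08, with 8 of 16 below 0. Cox7a2, the widely used form of subunit 7a, came nearest to the threshold among the members: 42356, 40692 and 33673 in the single-positive and 30472, 28196 and 22403 in the double-positive arrays. All double-positive arrays were lower, and the difference was -0.53 (SE 0.16, adjusted p = 0.094). Its second probe set, at 7447, 8717 and 6380 against 5193, 3902 and 4767, also did not overlap and gave -0.70 (SE 0.22). The next members by adjusted p were Ndufa4l2 at 0.097 and Uqcrfs1 at 0.14.

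Ndufa4 read 12944, 11486 and 11375 against 7617, 6402 and 10670, without overlap (-0.57, SE 0.22, adjusted p = 0.20). Cox6c, a nuclear-coded subunit with a single form in mammals, read 34626, 27937 and 32173 against 24730, 22777 and 26929 (-0.35, SE 0.15, adjusted p = 0.25). Its second probe set was tighter, at 15214, 15841 and 16272 against 10927, 10658 and 10880 (-0.54, SE 0.15). On both probe sets of Cox6c every double-positive array was lower. Cox5b, which binds zinc on the matrix side, gave -0.28 (SE 0.17) on its brightest probe set without overlap. Of its other tested probe sets 3 gave -0.29, -0.55 and -0.84, and a dim one gave 0.48 (SE 0.72). Cox6b1 read 25437, 24431 and 22984 against 21661, 21746 and 17278, without overlap (-0.27, SE 0.15). Its second probe set gave -0.14 (SE 0.24), with overlap. Cox5a differed by -0.30 (SE 0.17), with the third double-positive array, at 28944, level with the single-positive arrays. The lowest value of all members, -1.82 for Cox7c (SE 0.72, adjusted p = 0.22), came from a dim probe set at 463, 419 and 203 against 255, 6.21 and 105.

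**Figure D3:**
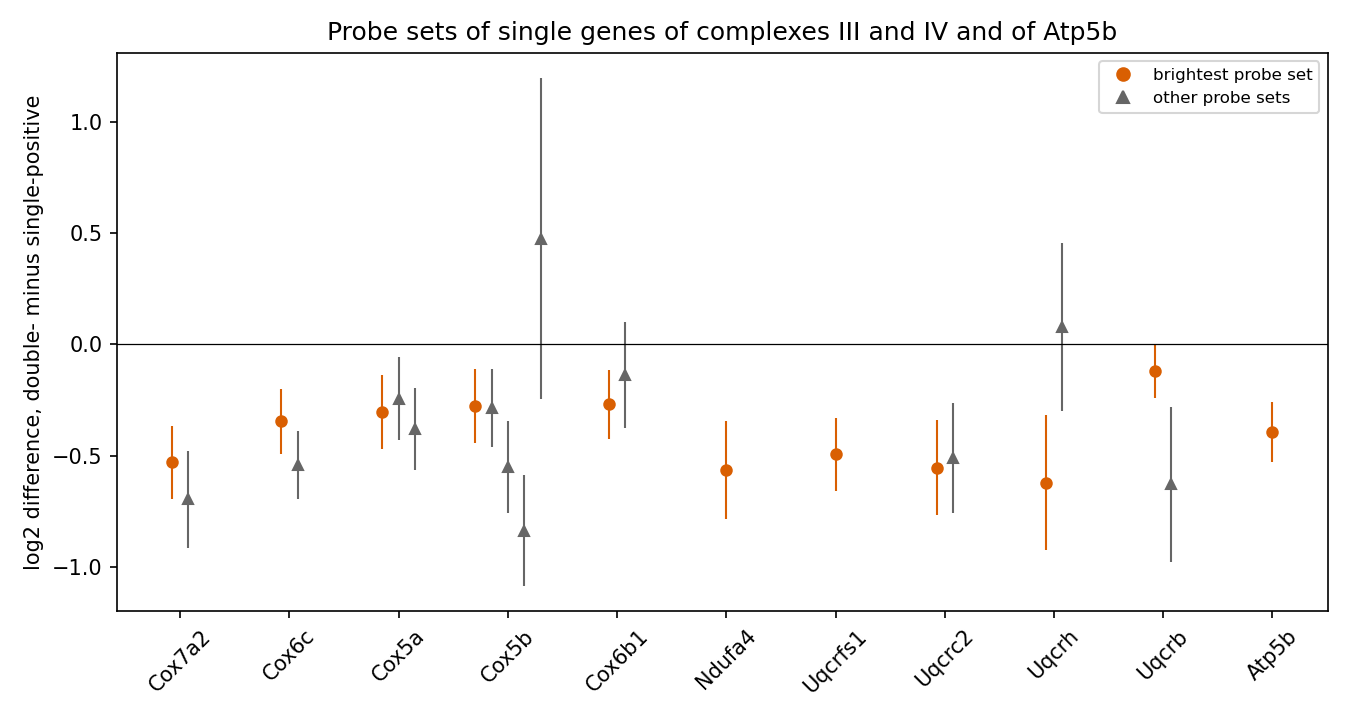
Log2 difference (double-positive minus single-positive) with 1 SE for each tested probe set of 11 genes of complexes III and IV and ATP synthase; orange circles mark the brightest probe set of a gene and grey triangles the others. For Cox7a2, Cox6c and Uqcrc2 all probe sets lie below 0, whereas those of Uqcrh and Cox5b fall on both sides.

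Cox4i1, Cox6a1, Cox7a2l and Cox8a differed by less than their SE. Cox4i1, the widely used form of subunit 4, read 31692, 32852 and 29616 against 30241, 33531 and 24218, a difference of -0.11 (SE 0.16, 95% interval -0.45 to 0.24). Cox6a1 read 28350, 27796 and 27295 against 28333, 31229 and 21018 (-0.07, SE 0.17). Cox7a2l, which joins complexes III and IV into supercomplexes, read 33726, 27363 and 25041 against 28736, 34297 and 26842 (0.06, SE 0.16). Cox8a read 755, 971 and 1264 against 1058, 2125 and 486, where the double-positive arrays spanned the single-positive range, and the difference was 0.08 (SE 0.49).

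None of the tissue-restricted isoforms passed the test, and 3 of the 8 did not pass the filter. Ndufa4l2, the paralog of Ndufa4 known as a target of hypoxia signalling, read 80.1, 237 and 57.1 in the single-positive and 564, 1113 and 213 in the double-positive arrays. The third double-positive array fell below the second single-positive array, and 2 of the single-positive signals were under the filter level, so the size of the difference there depends on the offset added before the logarithm. The difference was 2.05 (SE 0.63, adjusted p = 0.097), the highest of all members. Ndufa4l2 passed with array weights (2.17, adjusted p = 0.031) and with the replicate number as a block (adjusted p = 0.018). It also passed without the third double-positive array, but in no setting that left out another array. Cox6b2, the testis form of subunit 6b, read 619, 362 and 674 against 1255, 852 and 931, all higher (0.87, SE 0.36, adjusted p = 0.24).

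Cox4i2 read 173, 122 and 127 against 115, 284 and 113, high only on the second double-positive array (0.14, SE 0.455). Cox6a2, the muscle form of subunit 6a, read 210, 167 and 272 against 81.0, 242 and 167, with overlap (-0.43, SE 0.46). Cox7a1, the muscle form of subunit 7a, read 111, 57.6 and 55.1 against 27.9, 173 and 13.1 and did not pass the filter. Cox8b, the muscle form of subunit 8, was near the bottom of the range at 25.7, 12.5 and 9.44 against 15.6, 37.5 and 9.09. Cox7b2 was at 4.98, 39.6 and 10.6 against 2.10, 120 and 20.8. Cox8c, a testis isoform, read 745, 712 and 787 against 768, 729 and 495 (-0.19, SE 0.33), while its other probe set gave 0.67 (SE 0.41). Of these 8 isoforms 5 were highest on the second double-positive array (Ndufa4l2, Cox4i2, Cox7a1, Cox7b2 and Cox8b).

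The balance between isoforms was compared as the log2 signal of the restricted form minus that of the widely used form on each array, so that only its change between groups is read. With 3 arrays a group the smallest exact two-sided permutation p is 0.1, so no pair could reach 0.05, and p-values were adjusted over 8 pairs. Cox6b2 against Cox6b1 moved by 1.14, from -5.44 ± 0.48 to -4.30 ± 0.29 (SD, n = 3 each; exact p = 0.1, adjusted 0.53), with all double-positive arrays above. Ndufa4l2 against Ndufa4 moved by 2.61 (exact p = 0.2, adjusted 0.53), with SDs of 0.91 and 1.51. The value for Cox6a2 against Cox6a1 was -0.36 (exact p = 0.7), with SDs of 0.33 and 0.72. For Cox7a1 and Cox8b, which did not pass the filter, the balance cannot be read from these signals. Cox4i2 against Cox4i1 moved by 0.25 (exact p = 0.6).

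**Figure D4:**
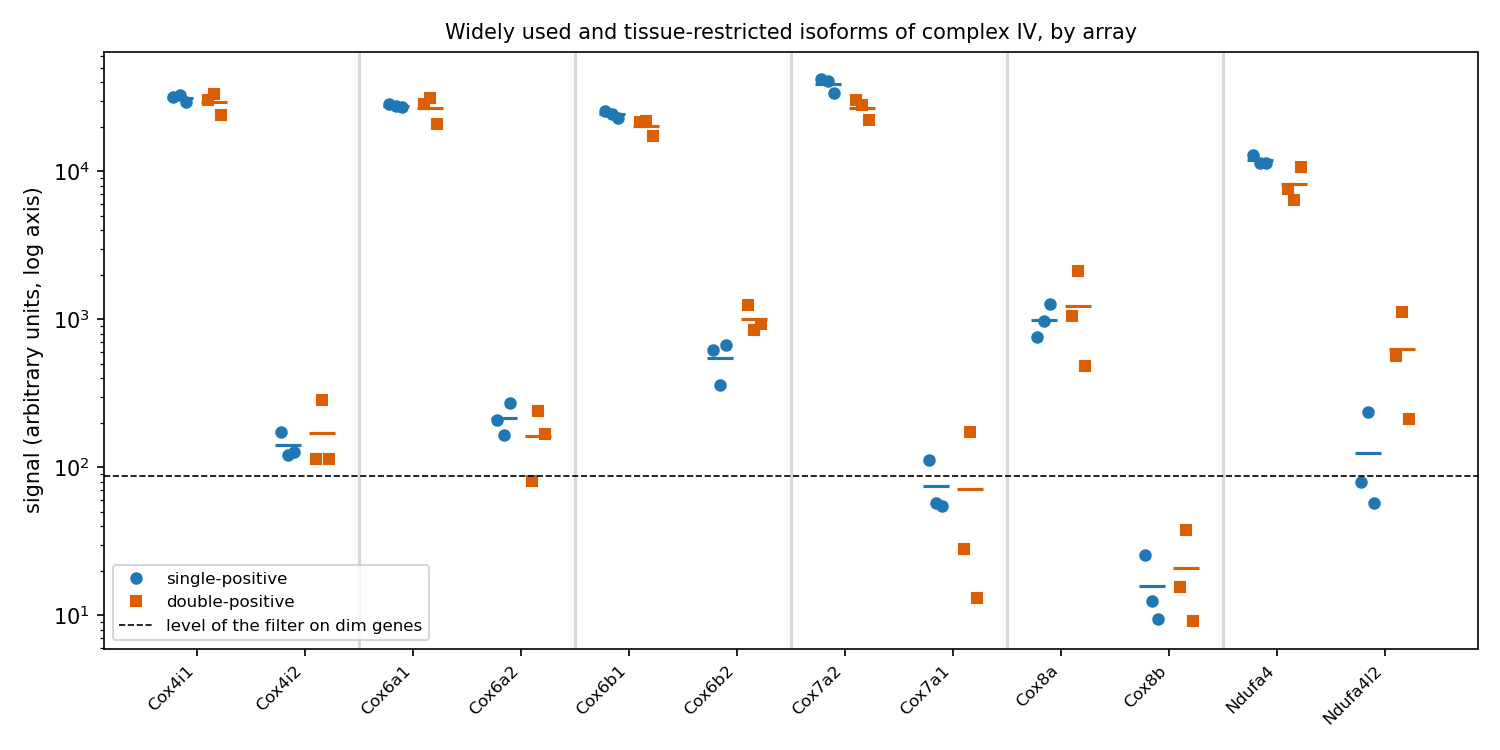
Signal on each array (log axis, arbitrary units) of widely used and tissue-restricted complex IV isoforms, paired by subunit, for single-positive (blue circles) and double-positive arrays (orange squares); short lines are group means (n = 3) and the dashed line is the filter level of 87.6. Ndufa4l2, Cox6b2, Cox4i2, Cox8a and Cox8b have higher means in double-positive cells, of which only Cox6b2 is without overlap. Cox7a1 and Cox8b have means below the dashed line. Brightness between probe sets is not a level of transcripts.

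Several striated muscle genes were lower in double-positive cells. Acta1, skeletal muscle actin, read 45133, 35935 and 33996 in the single-positive and 565, 1762 and 2152 in the double-positive arrays (-4.85, limma adjusted p = 0.0002). Actc1, Tnnt2, Ckm, Tnnt3, Myh2 and Myh6 were also lower in double-positive cells, so that 7 of 17 tested striated muscle markers passed (4.38% of all genes were called lower), and 3 further markers did not pass the filter. Of the 17, 14 were below 0 and 3 above (Actn3, Ttn and Myh3, at most 0.56), none of these 3 called. The summed signal of the 20 markers was 117913 to 137408 against 3932 to 21856. In the same single-positive arrays Cox6a2, Cox7a1 and Cox8b read 167 to 272, 55.1 to 111 and 9.44 to 25.7, and myoglobin (Mb) read 10.7 to 56.5. Fetal and smooth muscle also use some of these striated genes, Actc1 among them. Of the brown fat list, whose tissue also uses Cox7a1 and Cox8b, 1 of 5 tested genes was called lower (4.38% of all genes were). This was Fabp4, a fatty acid binding protein also found in endothelium, which differed by -2.81 (limma adjusted p = 0.0006). Cidea, a lipid droplet protein, read 243, 856 and 315 against 5.89, 124 and 95.3 (-2.39, limma adjusted p = 0.066). The summed signal of the 9 genes was 6871 to 11321 against 2947 to 3309, without overlap, and its part in the results was not tested. Ucp1, the defining gene of brown fat, read 6.4 to 15.1 on all 6 arrays.

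**Figure D5:**
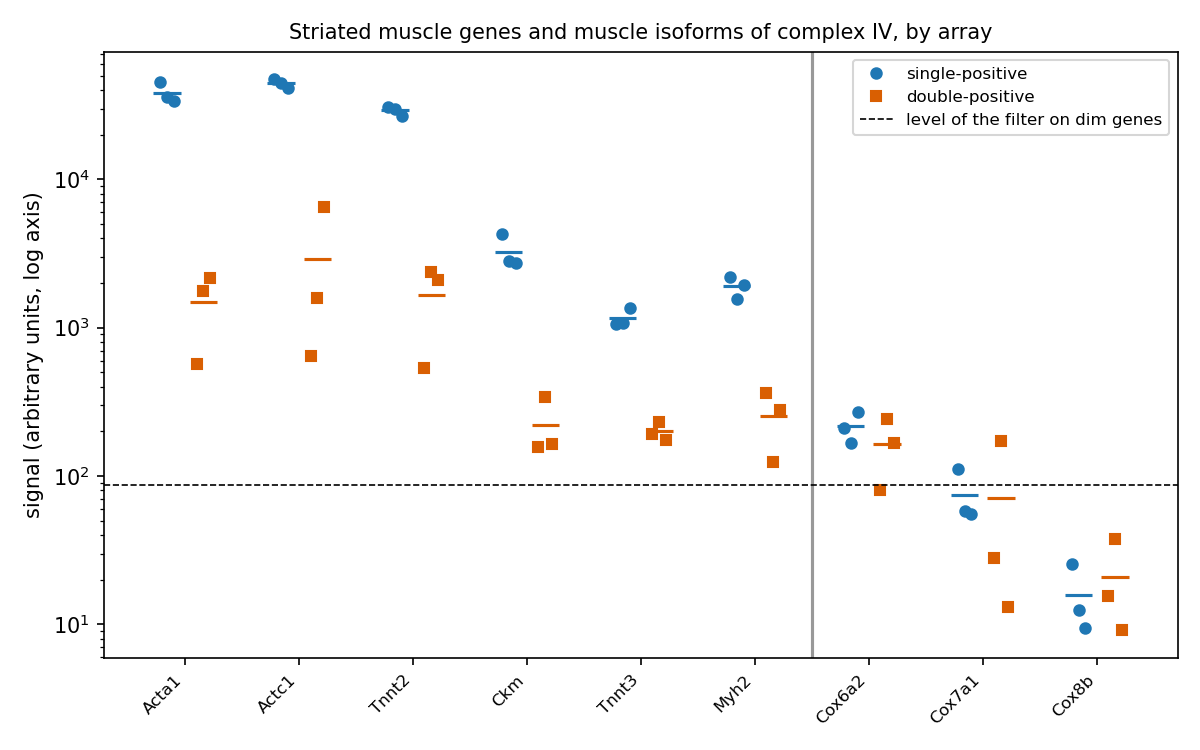
Signal on each array (log axis, arbitrary units) of 6 striated muscle genes and the 3 muscle isoforms of complex IV, for single-positive (blue circles) and double-positive arrays (orange squares), with group means (n = 3) as short lines and the filter level of 87.6 dashed. The 6 striated muscle genes separate the groups on every array, and the groups overlap for Cox6a2, Cox7a1 and Cox8b.

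ATP synthase, which turns the proton gradient into ATP, had 17 tested genes. All 17 differed by less than 0.5, 0 were called, and the median was 0.01. The double-positive arrays lay below for 2 genes (11.8%, against 11.9% of all genes) and above for 0. Atp5b, the catalytic beta subunit, read 34980, 31013 and 30573 against 25718, 23324 and 24383. These groups were well apart for a small difference of -0.39 (SE 0.14, adjusted p = 0.15). Atp5a1, the alpha subunit that alternates with beta in the catalytic ring, read 42588, 41057 and 32553 against 42762, 39069 and 34537, a difference of 0.01 (SE 0.15, 95% interval -0.33 to 0.34). Atp5c1, the gamma subunit of the central stalk, read 61338, 64098 and 49105 against 52843, 47574 and 43587 (-0.27, SE 0.14, adjusted p = 0.37).

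Atp5g1, Atp5g2 and Atp5g3 encode the same mature c subunit of the rotor ring. Atp5g3 read 45761, 44857 and 37400 against 40911, 41492 and 35216 (-0.12, SE 0.14). Atp5g2 read 7953, 8819 and 8800 against 11896, 11587 and 7212 (0.23, SE 0.23), and Atp5g1 read 1700, 2462 and 2004 against 2164, 4136 and 1848 (0.32, SE 0.34). The balance of Atp5g1 to Atp5g3 moved by 0.44 (exact p = 0.6) and that of Atp5g2 to Atp5g3 by 0.35 (exact p = 0.2), the latter with SDs of 0.22 and 0.28. Atp5j, coupling factor 6, differed by 0.21 (SE 0.17) and Atp5l by 0.06 (SE 0.36), the latter over single-positive signals of 1000 to 2185.

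Of 51 members with more than 1 probe set, 49 had at least 2 that were tested, and 0 of the 162 member probe sets tested passed (3.42% of all probe sets did, 1.01% higher and 2.42% lower). Probe sets of a gene differed by over 0.8 for 7 of these genes: Atp5c1, Atp5j2, Atp5k, Cox5b, Cox8c, Ndufab1 and Uqcrq.

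Pathways that feed or assemble the chain were compared by lists of other genes. Of 15 tested citric acid cycle and pyruvate dehydrogenase genes 0 were called, all 15 differences were below 0 (48.2% of all genes were), and the median was -0.17. Without the third double-positive array 14 of 15 were below 0. Suclg1, a succinyl-CoA ligase subunit, read 19110, 19068 and 18988 against 10852, 14965 and 11805 (-0.62, SE 0.17, adjusted p = 0.070). It passed without the second double-positive array (adjusted p = 0.033) and with array weights (adjusted p = 0.016). Pdhb, of the pyruvate dehydrogenase complex, and Idh3b, of isocitrate dehydrogenase, differed by -0.48 and -0.43, both without overlap. In all 5 of the 15 lay below without overlap (33.3%, against 11.9% of all genes). Of 15 tested carriers and partners of the chain 0 were called, with a median of -0.01. Higd1a, a complex IV partner, differed by -0.62 (SE 0.24), the outer membrane channel Vdac2 by -0.36 (SE 0.15) and cytochrome c (Cycs) by -0.42 (SE 0.19).

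Among 28 tested assembly factors outside the symbol rule 1 was called (6.37% of all genes were). Tmem70, needed to build ATP synthase, fell from 6082, 4576 and 5001 to 1465, 1831 and 2003 (-1.55, SE 0.25, adjusted p = 0.0051), and passed in all 17 alternatives. Atpaf1, another ATP synthase factor, differed by -0.76 (SE 0.38) and Ttc19, a complex III factor, by -0.85 (SE 0.47), both with overlap. Of 14 tested regulators of mitochondrial biogenesis 0 were called, with a median of -0.04. Their smallest p-values belonged to Ppargc1b, a coactivator (-1.53, SE 0.61, adjusted p = 0.22), Tfb2m, a mitochondrial transcription factor (-0.70, SE 0.31), and Gabpa, an ETS factor (-0.38, SE 0.24).

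In glycolysis 2 of 17 tested genes were called, both lower (4.38% of all genes), and the median was 0.01. Pfkp, a phosphofructokinase, fell from 17343, 10481 and 14035 to 3644, 2537 and 2657 (-2.22, SE 0.25, adjusted p = 0.0007). Eno3, the muscle enolase, fell from 3151, 2119 and 3133 to 1000, 1399 and 1330 (-1.15, SE 0.30, adjusted p = 0.047). The call for Eno3 was lost whichever array was left out, with adjusted p from 0.052 to 0.19. Ldhb, a lactate dehydrogenase subunit, differed by -0.78 (SE 0.24, adjusted p = 0.093). It passed without the second double-positive array (adjusted p = 0.035) and with array weights (adjusted p = 0.020). Of 13 tested fatty acid oxidation genes 0 were called, with a median of -0.09. Acadl and Hadhb differed by -0.63 (SE 0.23) and -0.43 (SE 0.17) and Hadh by 0.31 (SE 0.14), each without overlap. Of the 13, 3 lay below without overlap (23.1%, against 11.9% of all genes) and 1 above (7.69%, against 10.5%). Over the 17 alternatives Hadhb ran from -0.52 to 0.29, so its sign was not kept. Acadl ran from -0.79 to -0.43, with limma adjusted p from 0.048 to 0.77.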

How the data were processed

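Affymetrix MOE430 arrays of 6 samples were used. What the authors deposited is an unlogged intensity for each probe set. Of the software, GCOS appears in the submitters' processing notes; which algorithm, release and target it used was not found in the labels. Every array had the same trimmed mean (1500.01, leaving out 2% of values at both ends), so total RNA cannot be compared, and array medians ran from 147 to 200. RNA was amplified in 2 rounds. The 3' to 5' ratios ran from 2.78 to 8.02 for the Actb control and from 11.8 to 23.9 for the Gapdh control. Probe sets far from the 3' end may therefore lose signal.

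Values were taken as log2(intensity + 25.042), the 20th percentile of all values, without rescaling (medians differed 1.36-fold). Each gene was represented by its brightest probe set with exactly 1 symbol, and kept above the 40th percentile of means. The test between groups was limma's (3.58.1, R 4.3.3), two-sided with a variance trend, adjusted by Benjamini-Hochberg over 13464 genes, threshold 0.05. Isoform pairs were compared with exact permutation tests. The procedure was tested on simulated data. Named members were the isoforms and their partners, the 3 of smallest p and the highest and lowest mean of each complex, and those nearest the threshold; of each pathway list, the 3 of smallest p and those called. Members named beyond this were chosen after their values were seen, as were the striated muscle genes plotted. The members and lists were chosen with earlier results of these data known. Cox14, Gpi1, Gapdh, Eno1 and Cpt1b were among the list genes not analysed here. No 2 arrays shared more than 13 identical values.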

Additional observations from a re-analysis of the deposited data

How the results depend on the processing

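With quantile normalization 3 members were called lower (Atp5b, Atp5c1 and Cox7a2), where 289 of 13466 genes in all were called higher and 571 lower. Ndufa4l2 was the 1 member called higher with array weights. With array weights 435 genes in all were called higher and 910 lower, against 267 and 590. Leaving out 1 array gave 0 to 1 members higher and 0 to 1 lower, and 160 to 348 genes higher and 303 to 736 lower in all. Counts under the main ones by over 1.5 times came without single-positive array 1 (374 lower), 2 (166 higher, 320 lower) or 3 (163 and 303) and without double-positive array 1 (160 higher). The members' median ran from -0.17 to 0.004 over 17 alternatives, that of complex III from -0.52 to -0.31 and that of ATP synthase from -0.09 to 0.07. Of 35 named members that were tested, 23 kept their sign under every alternative, 5 passed under some and 30 under none. No member was called in the main fit, so there was no called value whose sign could change. Same-numbered arrays deviated together only weakly (r = 0.19, 0.05 and 0.02), against -0.13 to 0.09 for arrays of different numbers. The main test did not take the numbers as pairs, and this choice changes which members pass. With the replicate number as a block 1 member was called higher (Ndufa4l2, adjusted p = 0.018) and 1 lower (Cox7a2, adjusted p = 0.020). In all 324 genes were then called higher and 690 lower. The pair of Cox7b2 and Cox7b was not run because Cox7b had no probe set under the naming rule, and isoform pairs have no fit with a block. The cause of these changes was not tested. With 3 arrays a group, dim members such as Cox7a1, Cox8b and Cox4i2 have differences that only a large change could show.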

Other observations

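Genes whose profiles over the 6 arrays were most like those of 3 tissue-restricted isoforms are given as a description; the points are 6 arrays in 2 groups, and the 5 highest of 13464 genes are named for each. For Ndufa4l2 these were Nt5dc2 (Pearson r = 0.993), Nabp2 (0.992), Atp23 (0.992), Ramp2 (0.987) and Mpzl1 (0.986). For Cox4i2 they were Cdkn1c (0.995), Gad2 (0.991), 5033404E19Rik (0.989), Mgrn1 (0.988) and Ebf4 (0.987). For Cox7a1, which did not pass the filter, they were Kif1c (0.987), Nfkb2 (0.984), Cspg5 (0.983), Ctcflos (0.980) and Mrpl46 (0.980). None of these genes passed limma's test between the populations, with adjusted p from 0.27 for Nt5dc2 to 0.97 for Cspg5. They were chosen for likeness to isoforms that were not called, so these p-values add no separate result. All 3 isoforms were highest on the second double-positive array, and a correlation over 6 points can rest on 1 of them.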
